A study of Mus musculus with 3 samples.

Results

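The genes described here are known as drivers and products of the epithelial-to-mesenchymal transition (EMT). They were read on single-colour Agilent arrays from mouse cells that the labels call embryonic stem cells (mESCs). There were 10 genes, the 5 transcription factor genes Snai1, Snai2, Twist1, Zeb1 and Zeb2 and the 5 mesenchymal product genes Vim, Fn1, Cdh2, Col1a1 and Col1a2. Every non-control probe whose accession is a transcript of one of them was taken, which gave 12 probes of 39429, and 10 genes of the 20659 that could be named. The study compared LIFR KO cells and gp130 KO cells with wildtype cells, with 1 array per genotype. All 3 groups shared the same label for cell type and standard culture conditions, and no strain, clone, passage or knockout method is given in the labels. LIFR is the LIF receptor and gp130, encoded by Il6st, the signal-transducing chain that it pairs with.

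In EMT, epithelial cells loosen their junctions, lose polarity and take on a migratory, matrix-producing state. SNAI1, SNAI2, ZEB1 and ZEB2 are zinc finger proteins that bind E-box sequences, best known for repressing the E-cadherin gene Cdh1, and TWIST1 is a basic helix-loop-helix factor that binds E-boxes too. Vimentin, fibronectin, N-cadherin and the chains of type I collagen are the proteins by which a mesenchymal state is commonly recognised, and TGF-beta is a classic inducer of the programme.

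Since each genotype was measured on 1 array, nothing could be tested and the scatter between cultures is unknown. Every comparison is between 2 arrays. The values given first are the scanner software's processed signals. Ratios were taken after each array was scaled by its 75th percentile, which lay at signals of 687 on the LIFR KO, 607 on the gp130 KO and 623 on the wildtype array. The errors beside ratios are the scanner software's errors of the 2 spots on the log2 scale, and the scatter of repeated spots gives a 95% half-width of 0.14 for a ratio of 2 spots. Neither covers differences between cultures. The lowest signal called well above background was 16.7 on the LIFR KO, 9.66 on the gp130 KO and 10.5 on the wildtype array, and the software called 58.3%, 65.5% and 64.4% of probes well above background. Local background was stray on part of the LIFR KO array, where it reached 25884 against a median of 23.5, but at the 12 spots of the EMT genes it lay between 17 and 33.5 over the 3 arrays. No spot of these genes was marked as an outlier. Neither Lifr nor Il6st marked its own knockout by signal. Lifr gave 29.97 on the LIFR KO and 34.9 on the wildtype array by 1 dim probe, while its other 2 probes were detected on no array, wildtype included, and Il6st gave 299 on the gp130 KO and 329 on the wildtype array. The position of either probe within its gene, against the part removed, is not given in the sources used here, so each array is called by its label.

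Snai1 and Col1a1 stood apart on the LIFR KO array, and Zeb2 was modestly lower on both knockout arrays. Of the 10 genes, 8 could be compared between the LIFR KO and the wildtype array, of which 2, Snai1 and Col1a1, were higher by 2-fold or more and 0 were lower by as much. Over all 14544 genes compared, 2.82% were higher by that margin and 1.49% lower. Between the gp130 KO and the wildtype array 9 could be compared, 1 of them by a bound, and 0 passed 2-fold in either direction, where 1.01% of 14917 genes were higher and 0.771% lower. The median log2 ratio of the compared members was 0.07 for the LIFR KO and 0.17 for the gp130 KO over wildtype, against 0.00 and 0.04 over all genes compared. Without scaling between the arrays the median of all genes for the LIFR KO over wildtype moved to 0.12, and 544 genes were higher and 144 lower in place of 410 and 216. In bulk RNA, fewer cells of a type and less RNA per cell cannot be told apart.

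**Figure D1:**
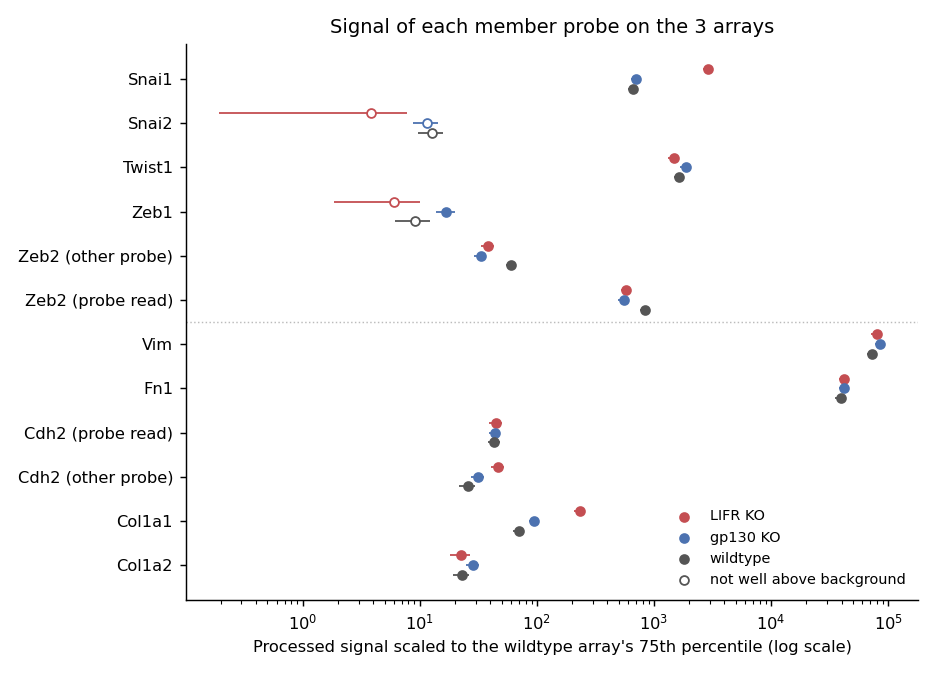
Processed signal of each of the 12 probes on the LIFR KO, gp130 KO and wildtype arrays, scaled to the 75th percentile of the wildtype array, on a log axis. Filled points were well above background, open points were not, and bars are the scanner software's error. The LIFR KO point lies to the right of both others for Snai1 and Col1a1, both knockout points lie to the left of wildtype for the 2 Zeb2 probes, and levels are not comparable between probes.

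Snai1, whose product is a repressor of Cdh1 and other epithelial genes, had a signal of 3186 on the LIFR KO, 691 on the gp130 KO and 661 on the wildtype array. The LIFR KO array was the high one, and the gp130 KO and wildtype arrays were close to each other. The log2 ratio was 2.13 with a scanner error of 0.20 for the LIFR KO over wildtype, or 4.37-fold higher. For the gp130 KO over wildtype it was 0.10 with an error of 0.20. The LIFR KO ratio lay between 1.59 and 2.27 over 11 alternative ways of processing and was past 2-fold in all 11.

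The Snai1 promoter is shown because this gene had the largest ratio of the 10 and because human SNAI1 is known to act on its own promoter through an E-box. The Epcam promoter is shown beside it as that of an epithelial adhesion gene, and the Col1a2 promoter as that of the partner collagen gene of Col1a1. The sequences are RefSeq windows of assembly GRCm38.p6, from 250 bases before to 50 bases after the start of the gene, 5′ to 3′ on the plus strand. Capitals mark the E-box CACCTG, searched on both strands, so that it reads CAGGTG where it lies on the other strand.
Snai1, chr2:167537945-167538244, plus strand: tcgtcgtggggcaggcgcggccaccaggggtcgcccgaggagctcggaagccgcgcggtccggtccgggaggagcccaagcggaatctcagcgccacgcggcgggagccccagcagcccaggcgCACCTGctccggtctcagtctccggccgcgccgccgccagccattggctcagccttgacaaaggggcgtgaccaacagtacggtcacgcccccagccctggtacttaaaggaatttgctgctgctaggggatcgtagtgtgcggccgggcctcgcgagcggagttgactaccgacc
Epcam, chr17:87635729-87636028, plus strand: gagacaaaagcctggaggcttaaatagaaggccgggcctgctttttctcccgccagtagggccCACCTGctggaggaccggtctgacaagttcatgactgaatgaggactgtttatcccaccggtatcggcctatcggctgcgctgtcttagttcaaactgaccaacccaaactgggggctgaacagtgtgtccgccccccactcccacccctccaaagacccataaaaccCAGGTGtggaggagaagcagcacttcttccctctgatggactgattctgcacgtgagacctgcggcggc
Col1a2, chr6:4505368-4505667, plus strand: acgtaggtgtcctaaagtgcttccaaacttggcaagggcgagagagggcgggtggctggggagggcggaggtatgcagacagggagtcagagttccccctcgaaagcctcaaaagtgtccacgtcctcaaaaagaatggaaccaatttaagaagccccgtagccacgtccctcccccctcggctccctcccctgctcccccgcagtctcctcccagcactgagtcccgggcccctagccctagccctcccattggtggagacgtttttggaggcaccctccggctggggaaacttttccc

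The Snai1 window held 1 CACCTG, beginning 126 bases before the start, and the Epcam window 2, beginning 187 and 19 bases before it. The Col1a2 window held 0. Of 32851 such windows in the table, 20.2% held CACCTG, so its presence does not set a promoter apart. Windows were at hand for 5 of the 10 genes, namely Snai1, Twist1, Zeb2, Vim and Col1a2, and Snai1 alone of these held CACCTG. The letters TTCNNNGAA, the palindrome that STAT factors are known to bind, were also searched and stood in 8.30% of all windows. They were in none of the printed windows and in 2 of the 4 Zeb2 windows, which overlap. A match is a description of the letters, and no match says only that the letters are not in this window.

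Snai2, the paralogue of Snai1 known from neural crest and wound edges, was not well above background on any array. Its probe had signals of 4.25, 11.2 and 12.8 on the LIFR KO, gp130 KO and wildtype arrays, so no ratio was taken. Unlike Snai1, it gave no signal on the LIFR KO array that could be told from background.

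Twist1, known for its part in mesoderm and skull development, had signals of 1630 on the LIFR KO, 1814 on the gp130 KO and 1649 on the wildtype array. The 3 arrays were close, with log2 ratios of -0.16 for the LIFR KO and 0.17 for the gp130 KO over wildtype, each with a scanner error of 0.20. Neither ratio exceeded that error. Twist1 was well above background on all 3 arrays.

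Zeb1, which with Zeb2 forms a well known mutual repression with the miR-200 family, was near the limit of detection. Its signals were 6.61 on the LIFR KO, 16.4 on the gp130 KO and 9.14 on the wildtype array, and the software called it well above background on the gp130 KO array alone. The ratio of the gp130 KO over wildtype is therefore given as a bound, 1.60-fold higher under the main processing, or 0.68 on the log2 scale. Over 10 alternatives it lay between 0.16 and 0.92, and the scanner error of the 2 spots was 0.55. No ratio was taken for the LIFR KO over wildtype. The gp130 KO signal of 16.4 lies just under 16.7, the lowest spot well above background on the LIFR KO array.

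Zeb2 had the lowest ratio of the members over wildtype on either knockout array, and it was read by 2 probes. The brighter one had signals of 637 on the LIFR KO, 538 on the gp130 KO and 842 on the wildtype array, which made wildtype the high one. Its log2 ratios were -0.54 and -0.61 for the LIFR KO and the gp130 KO over wildtype, each with a scanner error of 0.20, or 1.46-fold and 1.53-fold lower. The dimmer probe, at 42.3, 32.3 and 60.4, gave -0.66 and -0.86 with errors of 0.24 and 0.23. Both probes thus had wildtype highest, by more than the scanner error and by less than 2-fold. The ratios share the wildtype array. Over 11 alternatives the Zeb2 ratio stayed below 0, between -0.60 and -0.40 for the LIFR KO and between -0.74 and -0.50 for the gp130 KO.

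**Figure D2:**
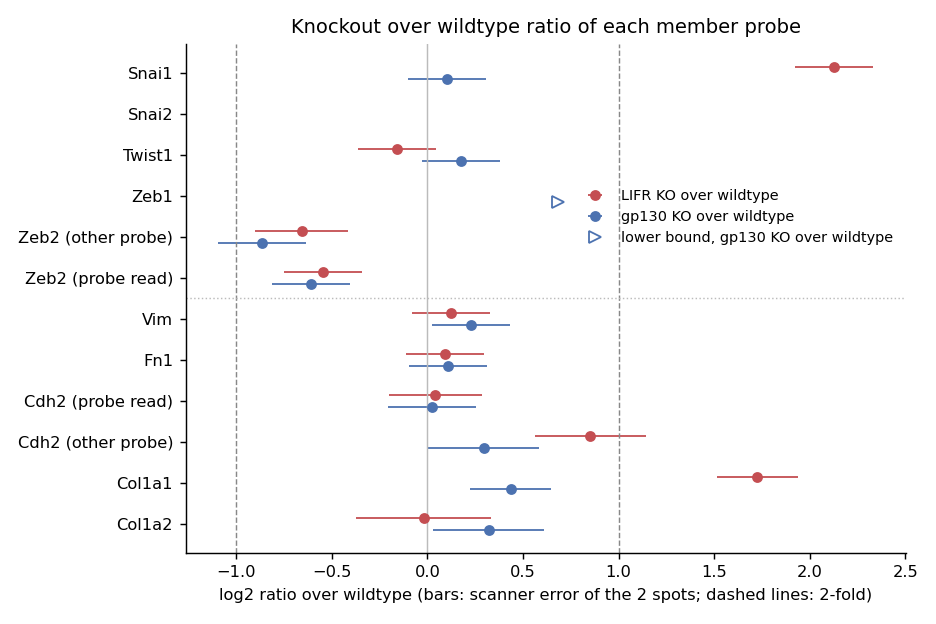
Log2 ratio over wildtype of each probe for the LIFR KO and the gp130 KO array, with the scanner error of the 2 spots as bars and dashed lines at 2-fold. The open triangle is a lower bound, and Snai2 has no ratio. Snai1 at 2.13 and Col1a1 at 1.73 on the LIFR KO array lie past 2-fold, and the remaining points lie between the dashed lines.

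Among the mesenchymal products, Vim and Fn1 were clearly detected and differed little between the arrays. Vim, the gene of the intermediate filament vimentin, had signals of 87779 on the LIFR KO, 83486 on the gp130 KO and 73043 on the wildtype array, with log2 ratios of 0.12 and 0.23 over wildtype. Fn1, the gene of the matrix glycoprotein fibronectin, had 46247, 41279 and 39354, with log2 ratios of 0.09 and 0.11. The scanner error of each of these ratios was 0.20, which only the gp130 KO ratio of Vim exceeded. With normexp on the median signal the LIFR KO ratios turned to -0.47 for Vim and -0.45 for Fn1. These probes were bright on the wildtype array as well.

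Cdh2 encodes N-cadherin, the adhesion protein that often replaces E-cadherin in EMT, and its 2 probes did not give the same ratio for the LIFR KO. The probe with the higher mean had signals of 49.1 on the LIFR KO, 42.8 on the gp130 KO and 43.2 on the wildtype array, and log2 ratios of 0.04 and 0.02 over wildtype. The other had 51.2, 30.7 and 25.7 and log2 ratios of 0.85 and 0.29, with scanner errors of 0.29 each. Both probes were dim. The highest local background within 5 rows and columns of the second spot was 62.5 on the LIFR KO array, against 34.5 on the wildtype array, and its part in this ratio was not tested.

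Col1a1, the gene of the alpha 1 chain of type I collagen, had signals of 257 on the LIFR KO, 92.9 on the gp130 KO and 70.4 on the wildtype array. The LIFR KO array was the high one and the gp130 KO array lay between. The log2 ratio was 1.73 with a scanner error of 0.21 for the LIFR KO over wildtype, or 3.31-fold higher, and 0.44 with an error of 0.21 for the gp130 KO. Over 11 alternatives it lay between 1.11 and 1.87 for the LIFR KO and was past 2-fold in all 11.

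Col1a2 encodes the alpha 2 chain that is built into the same collagen fibre. It had signals of 24.8 on the LIFR KO, 27.8 on the gp130 KO and 22.8 on the wildtype array, with log2 ratios of -0.02 and 0.32 and scanner errors of 0.35 and 0.29. These signals lay near the detection limit of 16.7 on the LIFR KO array. With normexp on the median signal, whose fit includes the stray spots, the LIFR KO ratio of Col1a2 was 1.86. That value lies in the range of Col1a1 over the alternatives, 1.11 to 1.87. The difference between Col1a1 and Col1a2 on this array thus depends on whether that 1 setting is used. Of 11 alternatives 4 turned the sign of the Col1a2 ratio. Apart from 1.86, the turned values lay between 0.12 and 0.14, under its scanner error of 0.35.

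The arrays of the 2 knockouts were also compared with each other. With 1 array each, genotype cannot be told apart from clone, culture or array. Of 9 genes compared between the gp130 KO and the LIFR KO array, 0 were higher by 2-fold or more and 2 were lower, where 1.24% of 14759 genes were higher and 2.12% lower. Without scaling 113 and 431 of all genes were higher and lower in place of 183 and 313. The 2 were again Snai1, 4.08-fold lower with a log2 ratio of -2.03, and Col1a1, 2.44-fold lower with -1.29, and these ratios share the LIFR KO array with the ones above. With normexp background correction fitted without the stray spots, Col1a1 came to -0.90, which is under 2-fold. Twist1 had a log2 ratio of 0.33 with a scanner error of 0.20, and Zeb2 had -0.07. The median over the compared members was 0.01, against 0.03 over all genes.

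**Figure D3:**
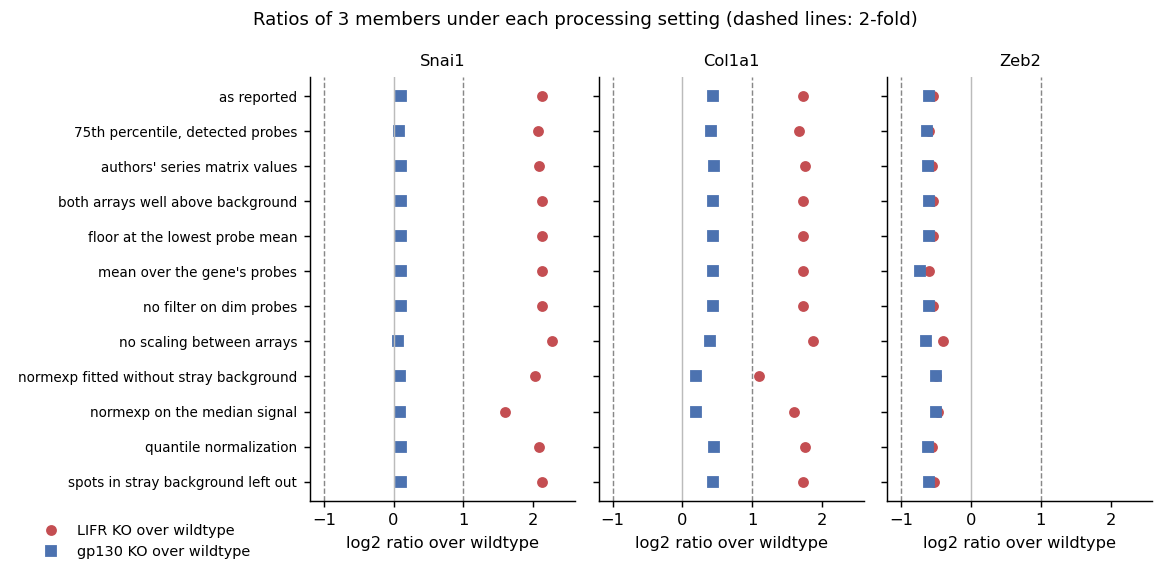
Log2 ratio over wildtype of Snai1, Col1a1 and Zeb2 under the main processing and 11 alternatives, with circles for the LIFR KO and squares for the gp130 KO and dashed lines at 2-fold. The LIFR KO ratios of Snai1 and Col1a1 lie past 2-fold in every row, and both Zeb2 ratios lie below 0 and under 2-fold in every row.

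On the LIFR KO array, where Snai1 was high, none of the epithelial genes examined was lower by 2-fold or more. All 30 genes of a list of epithelial genes known as targets of EMT factors were well above background on all 3 arrays. On the LIFR KO array 1 of 30 was higher by 2-fold or more and 0 were lower, where 2.82% of all genes compared were higher and 1.49% lower. On the gp130 KO array 0 passed 2-fold in either direction, where 1.01% were higher and 0.771% lower. For a list of 30 genes such counts are near the shares of all genes. The median log2 ratios of the list were 0.14 and 0.03, with ranges from -0.68 to 1.17 and from -0.64 to 0.45. Cdh1, the E-cadherin gene and best known target of SNAI1, had signals of 11916 on the LIFR KO, 9836 on the gp130 KO and 9179 on the wildtype array, with log2 ratios of 0.24 and 0.14. With normexp on the median signal, whose fit includes the stray spots, the LIFR KO ratio of Cdh1 was -0.28. Of 11 alternatives this was the 1 that turned its sign. Epcam, whose promoter is printed above, had 2339, 2031 and 1775 with ratios of 0.26 and 0.23, and -0.10 for the LIFR KO with that correction.

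The simple keratin genes Krt8 and Krt18 had log2 ratios of 0.15 and 0.22 for the LIFR KO and 0.24 and 0.11 for the gp130 KO over wildtype, and the LIFR KO ratios became -0.31 and -0.34 with the same correction. The gene past 2-fold was Cldn4, of the tight junction protein claudin 4, with signals of 322 on the LIFR KO, 150.2 on the gp130 KO and 129.6 on the wildtype array and a log2 ratio of 1.17. Its second probe gave 0.99 for the same ratio, just under 2-fold, and normexp fitted without the stray spots gave 0.81, so the call does not hold throughout. The lowest of the list on the LIFR KO array was Esrp1, of an epithelial splicing factor, at -0.68. Esrp1 was named after its value was seen.

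The other mesenchymal matrix and cytoskeleton genes stayed under 2-fold. Of 36 on a list, 28 could be compared between the LIFR KO and wildtype and 29 between the gp130 KO and wildtype, and 0 passed 2-fold in either comparison. Over all genes, 2.82% were higher and 1.49% lower by that margin on the LIFR KO array, and 1.01% and 0.771% on the gp130 KO array. A count of 0 in a list of this size is near those shares. The median log2 ratios of the list were -0.09 and -0.01, with the highest at 0.30 on the LIFR KO array. The brightest, the calcium-binding protein gene S100a4, had ratios of 0.06 and 0.15. Serpinh1, of the collagen chaperone HSP47, had 0.07 and 0.08. Another 7 of the 36, Col5a2, Col6a3, Fbn1, Lox, Cnn1, Cdh11 and Mmp2, were detected on no array.

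Of 20 other transcription factors linked to EMT, 15 could be compared in each knockout. On the LIFR KO array 2 were at least 2-fold higher and 0 lower, where 2.82% and 1.49% of all genes compared were so. On the gp130 KO array 0 were higher and 1 lower, where the shares were 1.01% and 0.771%. All of these calls were of ID proteins, which bind basic helix-loop-helix factors and keep them off DNA. Id2 had signals of 3359 on the LIFR KO, 741 on the gp130 KO and 935 on the wildtype array, with log2 ratios of 1.70 and -0.30. Id1 had 5929, 1127 and 2524, with 1.09 and -1.13, so that wildtype lay between the knockouts. The median ratio of the list was 0.00 and 0.08. Snai3, Twist2, Foxf2, Prrx2 and Gsc were detected on no array.

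A TGF-beta pathway list had all of its 22 genes detected on the 3 arrays. Against wildtype, 2 of them were higher by 2-fold or more and 0 lower on the LIFR KO array, where 2.82% and 1.49% of all genes were so. On the gp130 KO array 0 were higher and 1 lower, where the shares were 1.01% and 0.771%. Pmepa1, a TGF-beta target that restrains the pathway, had signals of 2704 on the LIFR KO, 1962 on the gp130 KO and 1215 on the wildtype array, with log2 ratios of 1.01 and 0.73 over wildtype. The LIFR KO ratio lay at the 2-fold line, since its second probe gave 0.998 and 5 of 11 alternatives put it under 2-fold, down to 0.59. Ccn1, of a matrix-associated signalling protein, had -0.40 and -1.30. The median of the list was 0.03 for the LIFR KO and -0.01 for the gp130 KO, near those of all genes, but it does not describe single genes. Smad7, of an inhibitory SMAD and named after its value was seen, had 0.99 and -0.05. Other genes of the list were also named after their values were seen. For the LIFR KO over wildtype, Ccn2, Tgfb3, Tgfbi and Skil had 0.75, 0.66, 0.47 and 0.38, and Tgfb1 and Tgif1 had -0.55 and -0.33.

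**Figure D4:**
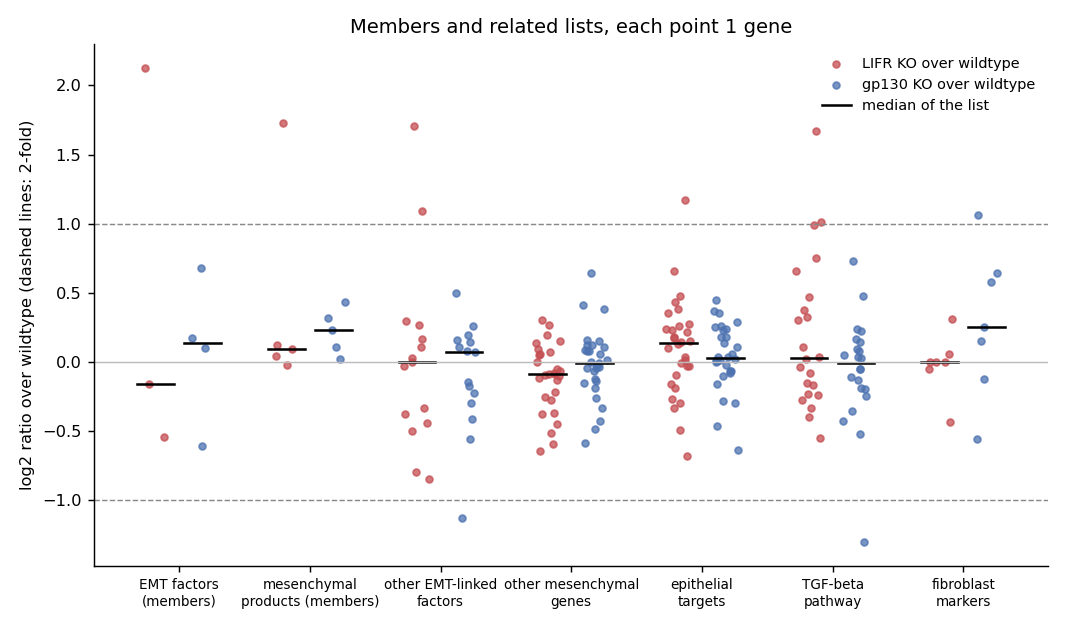
Log2 ratio over wildtype of each compared gene of the members and of 5 other lists, for the LIFR KO and the gp130 KO array, each point 1 gene, with the median of each list as a bar and dashed lines at 2-fold. Snai1 and Col1a1 stand above their own groups on the LIFR KO array, and Id2, Id1, Cldn4 and Pmepa1 lie past 2-fold in theirs. On the gp130 KO array Id1 and Ccn1 lie below -1 and Dcn above 1, and no gene of the other mesenchymal list passes 2-fold. Bounds are drawn at their value.

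Markers of other cells that express these genes were examined beside the collagen values. Of 12 fibroblast and feeder cell markers, 3 were well above background on the LIFR KO, 6 on the gp130 KO and 7 on the wildtype array. The LIFR KO array also had the highest detection limit, 16.7 against 9.66 on the gp130 KO and 10.5 on the wildtype array, and the lowest share of all probes detected, 58.3% against 65.5% and 64.4%. Their summed signal, scaled to the wildtype array, was 49880 on the LIFR KO, 53328 on the gp130 KO and 47956 on the wildtype array, most of it from S100a4. Pdgfrb, Lum, Fap, Fbn1 and Twist2 were detected on no array. Pdgfra and Postn, named after their values were seen, were well above background on all 3. Pdgfra had signals of 315 on the LIFR KO, 335 on the gp130 KO and 231 on the wildtype array. Its log2 ratios over wildtype were 0.31 and 0.58. Postn had signals of 249, 210 and 234 and ratios of -0.05 and -0.12. Thy1, a defining surface marker, had signals of 15.7, 23.7 and 20.4, and its LIFR KO signal was not well above background. The part of such cells in the Col1a1 value was not tested. Dcn, of the proteoglycan decorin, was the marker past 2-fold, with 33.6 on the gp130 KO against 16.5 on the wildtype array and a log2 ratio of 1.06, where the LIFR KO signal of 18.7 was not well above background. With normexp that gp130 KO ratio was 0.39. The labelled cell type was also checked, and of 16 markers of mouse embryonic stem cells 10 were well above background on all 3 arrays. Sox2, Zfp42, Dppa3, Fgf4 and Nr0b1 were so on none. By array, 10 of the 16 were detected on the LIFR KO, 11 on the gp130 KO and 11 on the wildtype array. These counts are near the shares of all probes, 58.3%, 65.5% and 64.4%, so they do not mark the cell type. Of the 11 compared on each knockout array none passed 2-fold. Over all genes compared, 2.82% were higher and 1.49% lower on the LIFR KO array, and 1.01% and 0.771% on the gp130 KO array. The median log2 ratios of the 11 were -0.32 for the LIFR KO and -0.00 for the gp130 KO over wildtype. The brightest, Klf4 and Klf2, were at 0.19 and 0.27 for the LIFR KO and at -0.05 and -0.64 for the gp130 KO. The lowest on the LIFR KO array, named after their values were seen, were Nanog at -0.68, Pou5f1 at -0.60 and Lin28a at -0.58. Pou5f1 was dim on every array, with signals of 22.7 on the LIFR KO, 20.3 on the gp130 KO and 31.2 on the wildtype array. Its LIFR KO ratio had a scanner error of 0.31.

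The genes whose pair of ratios over wildtype lay closest to that of Snai1, among genes well above background on all 3 arrays and outside stray background, were Cry2, Natd1 and Papss2. Their distances in the plane of the LIFR KO and gp130 KO log2 ratios were 0.06, 0.14 and 0.18. Cry2, a circadian repressor gene, had signals of 2170 on the LIFR KO, 488 on the gp130 KO and 448 on the wildtype array. Papss2 was dim, with 73.1, 18.9 and 16.6, and the local background of its LIFR KO spot was 60.5. Its LIFR KO ratio over wildtype fell from 1.99 to 0.39 with normexp fitted without the stray spots. That setting also adds an offset of 50 to every signal, and the Papss2 spot was itself not stray. What lowered the ratio was not tested. Those closest to Col1a1 were Gba2, Slc2a8 and Tspyl4, at distances of 0.06, 0.06 and 0.07. With 3 arrays such likeness is a description of 2 ratios.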

How the data were processed

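RNA was labelled with Cy3 for Agilent arrays of a single colour, per the labels' protocols. The headers give design 026655 with build mm9, and Feature Extraction 11.0.1.1 with protocol GE1_1100_Jul11 in 1 scan, while the submitters' processing notes name version 9.1. The deposited intensity of each spot is, per the file headers, the software's background-subtracted processed signal, not normalised between arrays. The authors also deposited a series matrix on a log2 scale, with a median of 5.38 for each array, which served as an alternative, since how the authors normalised them is not given in the sources used here.

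Outlier spots were left out, spots of a probe were averaged, and log2 signals were centred on each array's 75th percentile. Unversioned accessions matched to RefSeq (GRCm38.p6) named 27234 of 39429 probes (69.1%). Probes with other accessions stayed unnamed. A gene was read from its probe with the highest mean. A gene was compared when well above background on 1 of its 2 arrays. Where the other was not, the ratio is a bound against the higher of the dim value and the lowest spot well above background, set to 0 where that exceeds the bright value. At least 2-fold counted. The procedure was tested on simulated data. Normexp (limma 3.58.1, offset 50) used median signals, since the mean was not at hand. Stray spots had local background over 5 times the array's median.

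The genes and the 10 further lists (164 of 165 entries on the array) were chosen with earlier results of these data known. The genes named are the 10 members, Cdh1, Epcam, Krt8, Krt18, Lifr and Il6st. From each list up to 4 past 2-fold in a knockout, or else the 2 brightest, and the 3 nearest in pattern to each member past 2-fold were also named, except 1 gene that is not reported here.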

Additional observations from a re-analysis of the deposited data

Results flagged for a closer look

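Id1, of the list of other transcription factors linked to EMT, went past 2-fold in opposite directions in the 2 knockouts, with a log2 ratio of 1.09 for the LIFR KO and -1.13 for the gp130 KO over wildtype. With 1 array per genotype the difference was not tested. Under normexp on the median signal the first of these ratios was 0.51.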

How the results depend on the processing

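Member counts and the ratios of named genes were recomputed under 11 alternatives (10 for Zeb1), and no named ratio past 2-fold changed sign. Medians and counts of the other lists, detection counts and distances between patterns were not recomputed. Of 66 counts of members past 2-fold recomputed in this way, 61 stayed within 1.5 times and 5 did not. With normexp on the median signal, whose fit on the LIFR KO array includes the stray spots, 4 members were higher for the LIFR KO over wildtype and 4 lower for the gp130 KO over the LIFR KO, Cdh2 and Col1a2 being added. With normexp fitted without stray spots, 1 was lower for the gp130 KO over the LIFR KO. With no filter on dim probes, Snai2 made 1 lower for the LIFR KO over wildtype, and Snai2 and Zeb1 made 2 higher for the gp130 KO over the LIFR KO, all from signals not well above background on the LIFR KO array. Over all genes, 410 higher and 216 lower for the LIFR KO over wildtype became 3268 and 104 with normexp, 122 and 64 without stray spots, and 687 and 949 with no filter. For the gp130 KO over wildtype, 151 and 115 became 11 and 33 with either normexp, 666 and 585 with no filter, and 80 and 65 with both arrays well above background. For the gp130 KO over the LIFR KO, 183 and 313 became 54 and 3187, 40 and 81, 931 and 582, and 117 and 193. The normexp fits differ only in whether the stray spots of the LIFR KO array are used. What else moved these counts was not tested. No paired analysis was possible because each group has 1 array, and for the same reason no replicate could be left out. Signals near background, as for Snai2, Zeb1, Cdh2 and Col1a2, limit what their ratios can show.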

Other observations

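Among markers of smooth muscle, endothelium, macrophages and neural crest, none passed 2-fold in either knockout over wildtype under the main processing. Over all genes compared, 2.82% were higher and 1.49% lower by that margin on the LIFR KO array, and 1.01% and 0.771% on the gp130 KO array. Of all probes, 58.3% were well above background on the LIFR KO, 65.5% on the gp130 KO and 64.4% on the wildtype array. In lists this short, the detection counts below do not show that such cells were present. Of 7 smooth muscle and pericyte markers 3 were well above background on all 3 arrays, with Tagln at log2 ratios of -0.08 and 0.00 and Acta2 at -0.37 and -0.03 for the LIFR KO and the gp130 KO over wildtype. Of 7 endothelial markers 2 were detected by the probe read, Kdr at -0.35 and -0.12 and Pecam1 at -0.46 and 0.03. Cdh5, Tek, Tie1, Erg and Emcn were detected on no array. A second Kdr probe, with 10 spots, was also detected on no array, while the probe read had 934 on the LIFR KO and 1080 on the wildtype array. Of 7 macrophage and leukocyte markers on the array 5 were detected on all 3, with the integrin gene Itgam at -0.22 and 0.01 and Cd14 at -0.83 and -0.21. Of 7 neural crest and Schwann cell markers 5 were detected on all 3, with Tfap2a at -0.09 and 0.28 and Pax3 at -0.89 and -0.47. A second Pax3 probe, with 10 spots, was detected on no array, while the probe read had 82.2 on the LIFR KO and 138 on the wildtype array. With normexp on the median signal the LIFR KO ratios of Acta2, Pecam1 and Pax3 turned to 1.14, 0.32 and 0.74.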
